A study of Homo sapiens with 18 samples.

Results

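The ligands and follistatins of the transforming growth factor beta (TGF-β) superfamily described here comprised 10 genes of the 58302 in the RNA-seq count table: *GDF15*, *INHBA*, *INHBE*, *TGFB1*, *TGFB2*, *TGFB3*, *BMP2*, *BMP4*, *FST* and *FSTL3*. They were found by gene symbol, and all 10 symbols matched a single row of the table. The set was chosen by a rule that used measured values of the comparison between control and Erastin-treated cells, so the differences of its members, and their calls in the fit across all genes, are given as a description and without p-values. The series held 18 samples of U87MG (U87) cells, an established human glioblastoma cell line. RNA-seq was available for 4 libraries, 2 biological replicates of cells labelled as growing under normal conditions and 2 of Erastin-treated cells. Erastin blocks cystine import by system Xc- and was used to induce ferroptosis. Erastin was given at 10 μM for 72 h, and the labels of the control libraries name no vehicle. All libraries came from a single cell line, and U87MG cells in culture stand in for a tumour without its surrounding tissue. Between 29412656 and 31513519 counts fell on genes in each library, and 16751 genes had enough counts to be tested with edgeR.

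Ligands of the superfamily are made as precursors, cleaved, and secreted as dimers. TGF-βs, activins and BMPs bind pairs of type I and type II receptor kinases that phosphorylate SMAD transcription factors. TGF-βs are stored as latent complexes in the matrix, and follistatins capture activins outside the cell. GDF15 is a distant member of the family that is known as a stress-induced hormone and binds GFRAL, a receptor of the brainstem that signals with RET. Glioblastoma cells are known to secrete TGF-β, which restrains immune cells and acts on the tumour cells themselves.

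The bases before the start sites of the members are shown first, since genes of the set lay on opposite sides of the comparison. Promoter windows were taken from RefSeq (GRCh38.p14), which held 11 windows for 8 of the 10 members and none for *INHBE* and *BMP2*. Their start sites are not always those of the genes as counted. The stretches of *GDF15* and *TGFB3*, and that of *FST* further below, lie within the counted gene. That of *FSTL3* crosses the start of the counted gene, and the counted *TGFB2* begins downstream of its start site used here. The stretches below run from position −40 to −11 relative to the start site, are read 5′ to 3′ on the strand of the gene, and have motif matches in capitals. They lie at chr19:18386118-18386147 (plus strand) for *GDF15*, chr1:218345296-218345325 (plus strand) for *TGFB2*, chr14:75982006-75982035 (minus strand) for the downstream of 2 starts of *TGFB3*, chr19:676352-676381 (plus strand) for *FSTL3* and chr19:41353933-41353962 (minus strand) for *TGFB1*.
GDF15: agtccggggacTATAAAggccggtccggca
TGFB2: cagagagaactTATAAAtctcccctccccg
TGFB3: gggagggaggTATAAAatttcagcagagag
FSTL3: cccgcgggaccTTTATAgggagcgccggcc
TGFB1: gGGGCGGcttcaaaaccccctgccgaccca
The capitals mark TATAAA, the core of the TATA box, in *GDF15*, *TGFB2* and *TGFB3*, the same letters on the opposite strand in *FSTL3*, and GGGCGG, the core of the GC box, in *TGFB1*. Counted from the start site, the match spanned positions −29 to −24 in *GDF15*, *TGFB2* and *FSTL3* and −30 to −25 in *TGFB3*. *INHBA* held TATAAA nearer to its start, at −11 to −6. TATAAA occurred on either strand in 10.7% of all 35116 windows of the same length, and GGGCGG in 42.6%. Members with higher and with lower values after Erastin treatment both held TATAAA.

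The windows of *TGFB2* and *TGFB1*, the ligands with the largest and the smallest difference among the TGF-βs, are shown at length to compare their base composition. The stretches lie at chr1:218345086-218345335 (plus strand, all 250 bases) and chr19:41353923-41354162 (minus strand, the 240 bases nearest to the start), and capitals mark TATAAA or GGGCGG on either strand.
TGFB2: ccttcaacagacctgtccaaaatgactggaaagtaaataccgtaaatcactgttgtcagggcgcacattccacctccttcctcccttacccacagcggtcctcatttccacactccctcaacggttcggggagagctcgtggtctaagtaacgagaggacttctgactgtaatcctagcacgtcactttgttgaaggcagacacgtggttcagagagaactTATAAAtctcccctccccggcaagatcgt
TGFB1: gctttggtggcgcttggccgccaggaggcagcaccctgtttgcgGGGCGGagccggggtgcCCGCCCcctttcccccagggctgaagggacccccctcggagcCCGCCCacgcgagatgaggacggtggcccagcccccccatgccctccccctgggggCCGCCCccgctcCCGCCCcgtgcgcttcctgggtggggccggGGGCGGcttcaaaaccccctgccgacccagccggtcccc
G and C made up 50.4% of the 250 bases before *TGFB2* and 76.8% of the 250 bases before *TGFB1*, and the median over all windows was 58%. *TGFB1* held 6 matches of GGGCGG and no TATAAA, whereas *TGFB2* held a single TATAAA and no GGGCGG. The window of *GDF15* had 58.4% G and C and held GGGCGG once on each strand. Of the other members higher after Erastin treatment, *FSTL3* had 80% G and C and *INHBA* 42.8%. The windows of *TGFB3*, which was lower, had 54.8% and 49.2%. A link between base composition and the differences was not tested.

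Binding elements of stress and SMAD factors were searched on both strands of the same windows. They were TGATGNAA (C/EBP-ATF element, in 3.14% of all windows), TGANTCA (AP-1, 6.57%), TGACGTCA (CRE, 1.65%), TGACNNNGC (antioxidant response element, 10.9%), GTCTAGAC (palindromic SMAD element, 0.182%) and CCAGACA (SMAD element, 3.84%). The only match among the 11 windows was an AP-1 element of *FST*, at −160 to −154, shown in capitals within chr5:53480457-53480486 (plus strand).
FST: ggaaatgtcaccTGATTCAcactgaacttt
TATAAA and GGGCGG were added to the search after the windows had been read.

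*GDF15* (ENSG00000130513), on chromosome 19 of GRCh38 from 18374731 to 18389176 on the plus strand, had the largest difference of the set. Control replicates 1 and 2 held 2282 and 2252 of its reads, and Erastin replicates 1 and 2 held 17170 and 16525. The groups lay far apart, and replicates differed little. On the CPM scale, counts divided by library totals that edgeR's TMM method had adjusted, its expression was 73.6 ± 1.51 CPM in control and 549.98 ± 34.0 CPM in Erastin-treated cells (SD, n = 2). This was a 7.48-fold higher value, or 2.90 ± 0.0736 as log2 fold change and standard error. A change of this size placed *GDF15* 170th of the 16751 tested genes when ranked from the largest rise. Leaving out each library in turn gave values from 2.84 to 2.96. In these bulk libraries, a larger share of cells expressing a gene and more RNA per cell cannot be told apart.

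The activin subunits of the set, *INHBA* and *INHBE*, were at low levels and higher after Erastin treatment. *INHBB* and *INHBC*, which encode other subunits, had too few counts to be tested. *INHBA* (ENSG00000122641; chromosome 7, 41667168 to 41705834, minus strand) encodes the βA subunit, whose homodimer is activin A. It had 22 and 29 counts in control and 68 and 76 counts in Erastin-treated cells. Its level of 0.827 ± 0.151 CPM in control and 2.35 ± 0.103 CPM in treated cells (SD, n = 2) gave a log2 fold change of 1.50 with a standard error of 0.374, the largest error of the set. *INHBE* (ENSG00000139269; chromosome 12, 57452323 to 57459280, plus strand) encodes the βE subunit, best known from liver. Its counts were 195 and 165 in control and 501 and 397 in Erastin-treated cells. Its level was 5.84 ± 0.754 CPM against 14.7 ± 2.91 CPM (SD, n = 2), with a log2 fold change of 1.33 and a standard error of 0.185. In both genes the lowest Erastin library stood above the highest control library, although the Erastin replicates of *INHBE* were spread more widely than those of *INHBA*.

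The 3 TGF-β ligands were lower in Erastin-treated cells. *TGFB1* (ENSG00000105329; chromosome 19, 41301587 to 41353911, minus strand), the most abundant TGF-β of these cells, was counted 9731 and 9004 times in control and 5178 and 5572 times in Erastin-treated cells. Its expression was 304 ± 20.1 CPM and 175 ± 2.99 CPM, respectively (SD, n = 2). The difference on the log2 scale was −0.80, with a standard error of 0.0697. *TGFB1* therefore lay under the threshold of 1 on the log2 scale, although its libraries did not overlap between groups. *TGFB2* (ENSG00000092969; chromosome 1, 218346235 to 218444619, plus strand), also known as the glioblastoma-derived T cell suppressor factor, had 1318 and 1306 counts in control and 395 and 418 in Erastin-treated cells. Its expression of 42.6 ± 0.752 CPM against 13.3 ± 0.0689 CPM (SD, n = 2) made it 3.21-fold lower, the largest difference downward in the set. On the log2 scale the change was −1.68, with a standard error of 0.106. *TGFB3* (ENSG00000119699; chromosome 14, 75958099 to 75982991, minus strand) had 267 and 266 counts in control and 109 and 126 in Erastin-treated cells. Its level was 8.65 ± 0.120 CPM against 3.83 ± 0.259 CPM (SD, n = 2), with a log2 fold change of −1.17 and a standard error of 0.193. Replicates of *TGFB2* and *TGFB3* were close to each other in both groups.

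Parts of these genes overlap others, and strand was not used in the counting. *HNRNPUL1* shares 215 of the 3238 exon bases of *TGFB1* on the opposite strand (6.64%), and its own counts were 10434 and 9097 in control and 6508 and 7348 in Erastin-treated cells. *TGFB3-AS1* shares 3.32% of the exon bases of *TGFB3* and had at most 1 count in a library. *TGFB2-OT1*, on the same strand, covers 1371 of the 5151 exon bases of *TGFB2* (26.6%) and had 0 counts in every library. Reads on shared bases were not counted for either gene, so the level of *TGFB2* per length is understated.

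The bone morphogenetic proteins were weakly expressed. *BMP2* (ENSG00000125845; chromosome 20, 6767664 to 6780280, plus strand) had 360 and 281 counts in control and 211 and 180 counts in Erastin-treated cells. The groups did not overlap, but control replicates differed by more than those of any TGF-β in relative terms. Its level was 10.4 ± 1.93 CPM against 6.39 ± 0.937 CPM (SD, n = 2), or −0.70 on the log2 scale with a standard error of 0.194. *BMP4* (ENSG00000125378; chromosome 14, 53949736 to 53958761, minus strand), a close relative of *BMP2*, had 2 counts in Erastin replicate 1 and 0 in the other 3 libraries, and it was not tested. A count of 0 allows up to 3 counts, or 0.0955 to 0.100 CPM in these libraries. This limit covers counting error only, because PCR can copy a molecule several times and no molecular identifiers were used to tell the copies apart. A difference in *BMP4* was not detectable at this depth.

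The follistatins differed from each other. *FST* (ENSG00000134363; chromosome 5, 53480409 to 53487134, plus strand), which encodes the secreted protein that captures activins, had 265 and 296 counts in control and 291 and 339 in Erastin-treated cells. Its level was 9.10 ± 0.609 CPM against 10.3 ± 0.750 CPM (SD, n = 2). The log2 fold change of 0.17 was about as large as its standard error of 0.159. After scaling, the lowest Erastin library lay just above the highest control library, at 9.73 and 9.53 CPM. *FSTL3* (ENSG00000070404; chromosome 19, 676365 to 683399, plus strand) encodes a follistatin-like protein that also binds activins. It had 182 and 239 counts in control and 478 and 413 in Erastin-treated cells. Its level was 6.82 ± 1.23 CPM against 14.6 ± 2.01 CPM (SD, n = 2), with a log2 fold change of 1.09 and a standard error of 0.178. The value for *FSTL3* was 0.92 without control replicate 1 and 0.94 without Erastin replicate 1, under the threshold of 1.

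**Figure D1:**
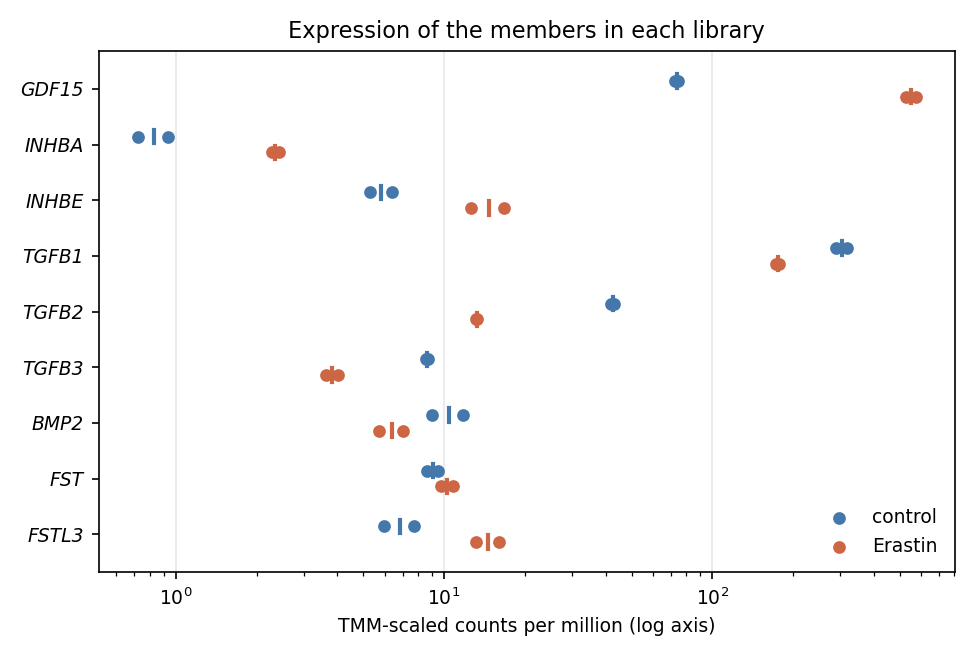
Expression of the 9 tested members in each library, in TMM-scaled CPM on a log axis, with a point per library and a vertical bar at each group mean. *GDF15*, *INHBA*, *INHBE* and *FSTL3* lie higher in both Erastin libraries, *TGFB1*, *TGFB2*, *TGFB3* and *BMP2* lie lower, and the libraries of *FST* lie close together. *BMP4*, with 2 counts in all, is left out.

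Genes were called when the log2 fold change reached 1 or −1 and the adjusted p of edgeR's quasi-likelihood test was under 0.05. Of the 10 members, 9 had enough counts to be tested. Called higher were 4 (*GDF15*, *INHBA*, *INHBE* and *FSTL3*), where 6.24% of all tested genes were called higher. Called lower were 2 (*TGFB2* and *TGFB3*), where 9.34% of all tested genes were called lower. With no threshold on size, 4 members were higher and 4 lower, beside 23.2% and 23.7% of all tested genes. The Erastin libraries lay wholly above the control libraries in 5 members and wholly below them in 4, beside 36.7% and 36.9% of all tested genes. Since the set was chosen by values of this comparison, these shares are printed side by side and nothing is read from them. The members nearest to the threshold were *FSTL3* at 1.09 and *TGFB3* at −1.17 inside it, and *TGFB1* at −0.80 and *BMP2* at −0.70 outside it.

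**Figure D2:**
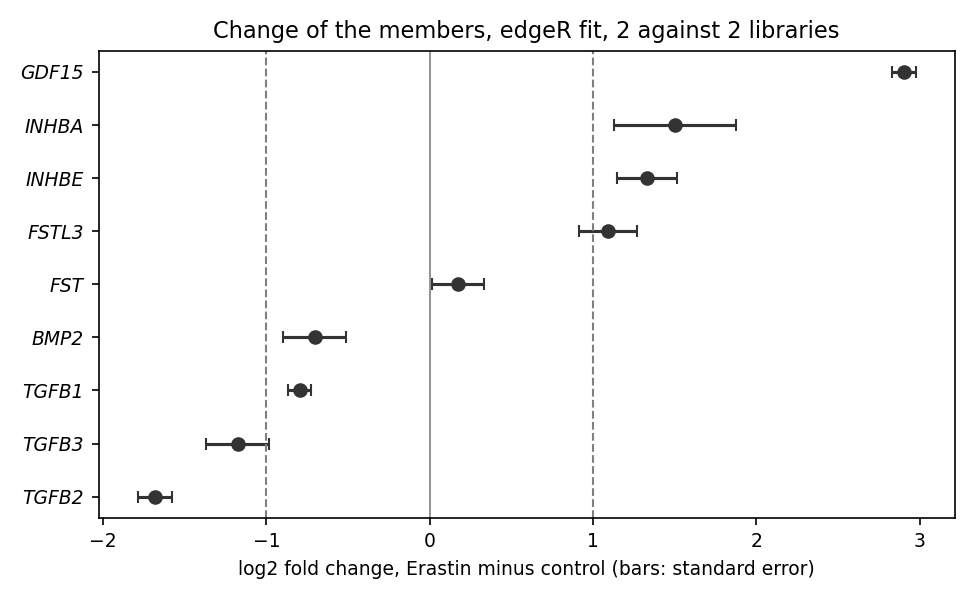
Log2 fold change (Erastin minus control) of the 9 tested members, with standard errors from the edgeR fit of 2 against 2 libraries. Dashed lines mark the thresholds at 1 and −1, and the values run from −1.68 for *TGFB2* to 2.90 for *GDF15*.

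Levels were compared between members after division by the exon length of each gene in kilobases. In control cells, *TGFB1* stood first at 93.9 ± 6.20 CPM per kilobase and *GDF15* next at 35.2 ± 0.724 CPM per kilobase (SD, n = 2). *TGFB2* followed at 8.27 CPM per kilobase, well apart from both neighbours. *FST* at 3.06 and *BMP2* at 2.89 CPM per kilobase had overlapping libraries and did not differ beyond their spread. The libraries of *FSTL3*, at 2.22 CPM per kilobase, overlapped those of *INHBE* at 1.94, and the latter overlapped those of *TGFB3* at 1.76. *INHBA* was far lower at 0.0996 CPM per kilobase, and *BMP4* was not detected.

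The order changed in Erastin-treated cells. *GDF15* stood first at 264 ± 16.3 CPM per kilobase, and *TGFB1* followed at 54.1 ± 0.922 CPM per kilobase (SD, n = 2). Next came *INHBE* at 4.87 and *FSTL3* at 4.75 CPM per kilobase, whose libraries overlapped. *FST* lay at 3.46, *TGFB2* at 2.57, *BMP2* at 1.77, *TGFB3* at 0.779 and *INHBA* at 0.283 CPM per kilobase, and the libraries of these neighbours did not overlap. As counted, *TGFB2* thus moved from the third to the sixth place of the set. Its level is understated by the uncounted bases shared with *TGFB2-OT1* (26.6% of its exon bases). Its place relative to *FST* in Erastin-treated cells is therefore uncertain.

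**Figure D3:**
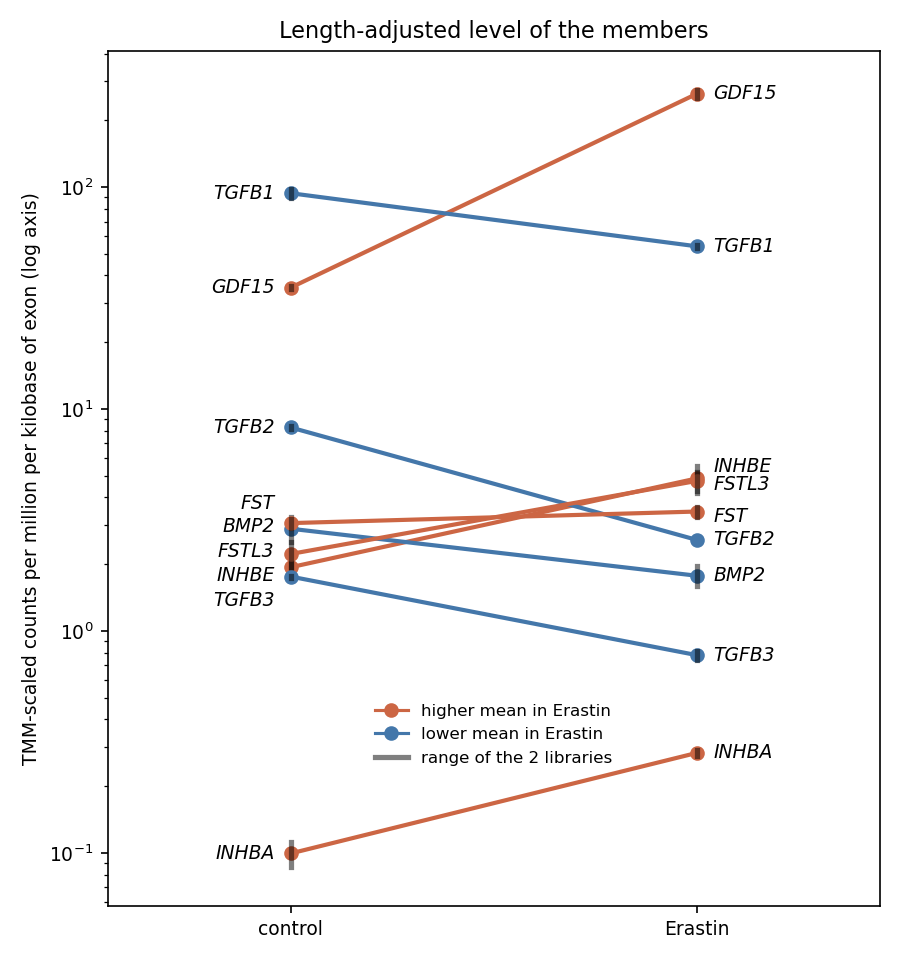
Mean level of 9 members in control and Erastin-treated cells, in TMM-scaled CPM per kilobase of exon on a log axis. Dark bars span the 2 libraries of a group. The lines of *GDF15* and *TGFB1* cross, as *GDF15* goes from 35.2 to 264 and *TGFB1* from 93.9 to 54.1.

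The balance within the set shifted toward *GDF15*. The ratio of its level per length to that of *TGFB1* was 0.364 and 0.388 in control and 5.14 and 4.60 in Erastin-treated cells. *GDF15* made up 23.1% and 24.1% of the summed level of the 10 genes in control and 79.0% and 77.7% in Erastin-treated cells. Among all genes of the table, it ranked 1159 and 1169 by level per length in control and 70 and 77 in Erastin-treated cells. These ratios use the same libraries as the rule and are likewise a description.

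The summed level of *TGFB1*, *TGFB2* and *TGFB3* was 108 and 99.4 CPM per kilobase in control and 56.8 and 58.2 in Erastin-treated cells. *TGFB1* made up most of it in every library, with 90.6% and 90.04% in control and 94.2% in both Erastin libraries. The level of *TGFB2* per length is understated, and its share of the sum with it. The share of *TGFB2* was 7.72% and 8.21% in control and 4.52% and 4.44% in Erastin-treated cells. That of *TGFB3* was 1.64% and 1.75% in control and 1.31% and 1.40% in Erastin-treated cells. The share of *TGFB1* was thus slightly higher, and those of the other two lower, in both Erastin libraries. *INHBA* and *INHBE* together stood at 2.20 and 1.87 CPM per kilobase in control and 5.83 and 4.48 in Erastin-treated cells. Most of this was *INHBE*, at 2.12 and 1.76 in control and 5.56 and 4.19 in Erastin-treated cells. The follistatins that bind activins, *FST* and *FSTL3*, together stood at 4.86 and 5.72 CPM per kilobase in control and 8.49 and 7.92 in Erastin-treated cells. In each library this RNA level was above the sum of *INHBA* and *INHBE*. Amounts of the proteins were not measured, so an excess of follistatin protein over activin was not tested.

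The genes with the pattern most like that of *GDF15* were found by the root mean square difference of centred log2 CPM over the 4 libraries. They were *OSGIN1* (difference 0.0476), *AMY2B* (0.0628), *RRAD* (0.0832), *CHAC1* (0.0853) and *ATF5* (0.0945). *OSGIN1* was counted 455 and 460 times in control and 3261 and 3422 times in Erastin-treated cells, and *RRAD* 2593 and 2414 times against 21374 and 19976 times. The value of *AMY2B*, with 38 and 39 against 326 and 290 counts, is uncertain because amylase genes share near-identical sequence. The genes most like *TGFB2*, the member with the largest difference downward, were *TNC* (0.0143), *THBS2* (0.0166), *KPNA2* (0.0192), *DTL* (0.0234) and *SGO2* (0.0243). *TNC*, which encodes the matrix protein tenascin C, was counted 75600 and 74975 times in control and 22210 and 24108 times in Erastin-treated cells. With 2 groups of 2 libraries, a small difference mainly says that a gene changed by a similar amount.

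The other genes of the pathway were taken from 9 lists of 117 genes ordered by role, of which 73 were tested. Among them, 6 were upregulated and 13 downregulated at the same thresholds in edgeR's test, where 6.24% and 9.34% of all tested genes were. With no threshold on size, 20 were higher, 30 lower and 23 did not pass, beside 23.2% higher and 23.7% lower among all tested genes. These shares of all tested genes stand beside the counts of each list below. The lists were chosen with earlier results of these data known, so their counts are a description and not an independent test. The median log2 fold change of the 73 genes was −0.35, and that of all tested genes was −0.00259. Values given for single genes without a unit are log2 fold changes of Erastin-treated against control cells. A further 19 genes of the lists had no count in any library.

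Of 25 other ligands of the superfamily, 8 were tested and 9 had no count, and *GDF1* could not be counted because all of its exon bases belong to *CERS1* as well. *BMP7*, a ligand of the BMP receptors, was upregulated from a low level, with 3 and 8 counts in control and 43 and 39 in Erastin-treated cells. It changed by 2.88 on the log2 scale (standard error 0.626, adjusted p = 0.00257, edgeR), and it was 2.36 without control replicate 1 and 3.71 without control replicate 2. *BMP6*, also a BMP, was downregulated from 40 and 33 to 4 and 10 counts (log2 fold change −2.36, standard error 0.617, adjusted p = 0.00787, edgeR). Without control replicate 1, *BMP6* no longer passed the test, at −2.21, and it was −1.88 without Erastin replicate 1 and −3.11 without Erastin replicate 2. *GDF11*, a relative of myostatin, was lower but just under the threshold at −0.99 (adjusted p = 1.01e-05, edgeR). Hence a BMP with low counts lay on each side, beside the lower values of *BMP2*.

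*GFRAL*, the receptor of GDF15, had 0 counts in all 4 libraries, and its partner *RET* had 2 and 4 counts in control and 6 and 4 in Erastin-treated cells. Among the 10 members, the ligand that differed most thus had no counted transcript of its receptor, within the limit of 0.0955 to 0.100 CPM. That limit treats the reads of a pair as independent, so the true limit is higher. *GDNF*, the founding ligand of the RET pathway, was tested together with *ARTN* and *PSPN*. None of the 3 passed the edgeR test, none had an unadjusted p under 0.05, and DESeq2 called none. Their log2 fold changes were −0.19, −0.63 and 0.27, with adjusted p = 0.155, 0.103 and 0.216 in edgeR's test.

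The fitted change of each tested type I or type II receptor was under 2-fold. The largest was that of *ACVR1C*, at −0.86 with a standard error of 0.355, which did not pass (adjusted p = 0.0665, edgeR). A 2-fold difference of *ACVR1C* is therefore not excluded. Of 12 type I and type II receptors 10 were tested, and none was called by edgeR or by DESeq2 at the threshold on size, or passed it with an unadjusted p under 0.05. At any size, 4 were higher and 3 lower. The kinases that TGF-β uses went in opposite directions. *TGFBR1* was higher by 0.73 on the log2 scale (adjusted p = 2.68e-06, edgeR), whereas *TGFBR2* was lower at −0.73 (adjusted p = 4.31e-06, edgeR). *BMPR2*, the BMP type II receptor, was at 0.56 and *ACVR2A*, an activin type II receptor, at 0.54, with adjusted p = 1.09e-04 and 0.0255 in edgeR's test. *ACVR2B*, its close relative, was at −0.66 (adjusted p = 0.00346, edgeR). Of the type I receptors, *ACVR1*, which BMPs use, was at 0.40 (adjusted p = 0.00122, edgeR) and *ACVR1B*, which activins use, at −0.35 (adjusted p = 0.0286, edgeR).

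Each of the 4 tested co-receptors passed the test. *BAMBI*, which encodes a receptor without a kinase that dampens TGF-β and BMP signals, was upregulated from 4 and 8 counts to 103 and 80 (log2 fold change 3.92, standard error 0.478, adjusted p = 3.63e-05, edgeR). Its value was 3.52 without control replicate 1 and 4.47 without control replicate 2. *ENG* (endoglin) was downregulated at −1.12 (adjusted p = 4.55e-07, edgeR), and *TGFBR3* (betaglycan), which presents TGF-β2 to its receptors, at −1.09 (adjusted p = 1.27e-05, edgeR). Without control replicate 1, *TGFBR3* was at −0.97 and under the threshold on size. *RGMB*, a co-receptor for BMPs, was lower at −0.67 (adjusted p = 0.00127, edgeR) and was not called.

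Among 17 other secreted antagonists, 5 were tested, of which 2 were downregulated. *CHRDL1*, a BMP antagonist, had 166 and 275 counts in control and 14 and 15 in Erastin-treated cells, a log2 fold change of −3.91 (adjusted p = 2.47e-06, edgeR). *FSTL1*, a follistatin-like glycoprotein, had 5443 and 5749 counts in control and 1378 and 1454 in Erastin-treated cells, a log2 fold change of −1.98 (adjusted p = 1.51e-09, edgeR). *FSTL1* and *FSTL3* thus lay on opposite sides, with values of −1.98 and 1.09. The median of the list was −0.74.

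Of 13 tested genes of TGF-β storage, cleavage and activation, 4 were downregulated, beside 9.34% of all tested genes. At any size 6 were lower, beside 23.7% of all tested genes, and the other 7 did not pass. *LTBP1*, which tethers latent TGF-β to the matrix, went from 12877 and 13930 counts to 3855 and 3960, a log2 fold change of −1.77 (adjusted p = 2.41e-09, edgeR). *LTBP4*, of the same family, was at −1.69 (adjusted p = 1.05e-07, edgeR). *ITGB8* and *THBS1*, whose proteins release TGF-β from the latent complex, were both at −1.19 (adjusted p = 8.40e-05 and 0.00480, edgeR). *THBS1* was at −0.97 without control replicate 1. *FURIN*, the protease that cleaves the precursors, was at −0.03 and did not pass (adjusted p = 0.715, edgeR). No gene of this list was called higher by edgeR or DESeq2, and none was higher past the threshold on size at an unadjusted p under 0.05.

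SMAD factors and their partners were all measured, and 2 of 13 were downregulated. *SMAD3*, which carries TGF-β and activin signals, went from 5031 and 5099 to 1822 and 2081 counts, a log2 fold change of −1.37 (adjusted p = 3.44e-08, edgeR). *SMAD6*, an inhibitor of BMP signals, was at −1.16 (adjusted p = 7.67e-04, edgeR). At any size 6 were higher, with *SKIL*, a repressor of SMAD targets, at 0.89 (adjusted p = 2.98e-06, edgeR). The median of the list was 0.14.

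Known response genes of TGF-β and BMP did not share a direction. *PMEPA1*, which is induced by TGF-β and restrains it, was upregulated by 1.20 (adjusted p = 1.66e-06, edgeR). Of the 9 tested genes, 7 were lower at any size. *ATOH8* was downregulated at −2.09 (adjusted p = 3.24e-07, edgeR) and *ID4* at −1.52 (adjusted p = 0.0107, edgeR), both of them targets of BMP signals. *ID1*, also a BMP target, was at −0.91 (adjusted p = 1.20e-06, edgeR), and *ID3* had no count in any library.

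Of 8 transcription factors known to act on *GDF15*, 3 were upregulated and 6 were higher at any size, beside 6.24% and 23.2% of all tested genes. *ATF4*, the factor of the integrated stress response, was counted 6657 and 7747 times in control and 28236 and 29826 times in Erastin-treated cells, a log2 fold change of 2.02 (adjusted p = 2.09e-09, edgeR). *ATF3* was upregulated by 2.25 (adjusted p = 1.01e-09, edgeR) and *DDIT3* (CHOP) by 1.40 (adjusted p = 1.55e-06, edgeR). *MARS1* shares 28.0% of the exon bases of *DDIT3* on the opposite strand. *NFE2L2* (NRF2) was higher by 0.74 (adjusted p = 2.16e-05, edgeR). *EGR1* was lower, at −0.86 (adjusted p = 6.05e-06, edgeR).

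**Figure D4:**
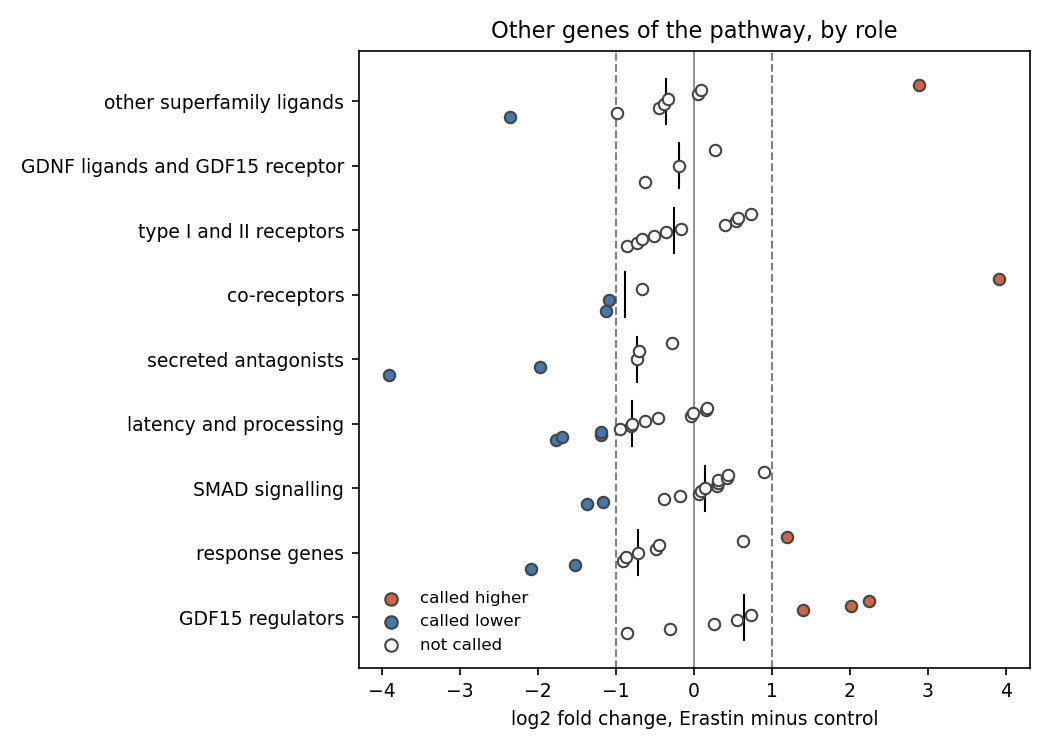
Log2 fold change (Erastin minus control) of the 73 tested genes of the other pathway lists, with a point per gene, the median of each list as a vertical bar and dashed lines at 1 and −1. Red points are called higher and blue points called lower. *BAMBI* (3.92) and *BMP7* (2.88) stand at the right, and *CHRDL1* (−3.91) at the left.

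The labelled cell type was compared with marker genes. Markers of glioma cells summed to 3979 to 4054 CPM in control and 2682 to 2872 CPM in Erastin-treated cells, mostly from *VIM* and *CD44*. *S100B* had at most 2 counts and *SOX2* at most 6 in a library, so these astroglial and stem cell markers were at or near 0. Markers of immune, endothelial, epithelial, neuronal and liver cells summed to 22.7 to 25.2 CPM in control and 10.0 to 11.4 CPM in Erastin-treated cells. Of these 9 genes, *CD3E* had no count and *PTPRC* and *CDH5* at most 1 count in a library. *PECAM1* had 138 and 188 counts in control and 31 and 33 in Erastin-treated cells, and *SYT1* 532 and 562 against 281 and 269. Both marker sums were lower in Erastin-treated cells, as were the TGF-βs, and their part in the differences was not tested.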

How the data were processed

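Total RNA of U87MG cells was sequenced in 4 libraries, 2 control and 2 Erastin-treated (10 μM, 72 h). The authors deposited raw read counts per gene without normalization. The deposited values were also checked for the decimals of estimated counts, but all were whole numbers. Per the file headers, featureCounts 2.0.3 assigned reads to genes of Ensembl release 90 (GRCh38) without strand, counted the reads of a pair separately and left out reads matching several genes. The submitters' processing notes name HISAT2 2.1.0 and featureCounts 2.0.4, and the methods name htseq-count. 

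edgeR 4.0.16 (R 4.3.3) was run on the counts. Genes passed filterByExpr at a minimum count of 10 (16751 genes), TMM factors of 0.971 to 1.02 scaled the libraries, and p-values of the quasi-likelihood test were Benjamini-Hochberg adjusted over all of these genes. Replicates varied with a biological coefficient of 10.3%. A call needed an adjusted p under 0.05 and a log2 fold change of 1 or more, or −1 or less. With 2 libraries per group, the smallest two-sided p of an exact permutation test is 0.333. Methods were tested on simulated data.

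Members and lists were chosen with earlier results of these data known. Named were all members, from each list up to 3 called genes with the largest change in each direction and any gene that a count of 5 or fewer refers to, and the 5 genes with the nearest pattern. *GDF11*, *RET*, *ACVR1C*, *SYT1*, *FURIN*, *ID1*, *SKIL*, *NFE2L2*, *EGR1* and the marker genes were added with their values in view. As alternatives, DESeq2 1.42.0, RLE size factors, scaling by library totals, other count filters, a replicate block, glmTreat, counts of read pairs and the omission of each library were tried. ChIP-seq and HiChIP data were not analysed here.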

Additional observations from a re-analysis of the deposited data

How the results depend on the processing

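Without a library in turn, genes called higher numbered 895 to 1066 and genes called lower 1446 to 1526, where all 4 libraries gave 1046 and 1564. Members called higher then numbered 3 to 4 (*FSTL3* was lost without control replicate 1 and without Erastin replicate 1), members called lower 2, other pathway genes called higher 6, and those called lower 10 to 14. Lost without control replicate 1 were *BMP6*, *TGFBR3* and *THBS1*. glmTreat, which tests the change against the threshold itself and so calls fewer genes, gave 377 genes higher and 748 lower, 1 member higher and 1 lower, and 6 other pathway genes lower. With DESeq2, RLE size factors, library totals, a minimum of 10 counts in every library, no filter on low counts, read pairs or the replicate block, the same 4 members were called higher and the same 2 lower.

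The replicate block gave 1039 genes higher and 1568 lower, 6 and 13 of them other pathway genes, and changed no call of a member. The labels do not say that same-numbered libraries were prepared together, and the correlation of their deviations was 0.0145. Library totals moved the median of all genes most, to 0.0471, and *TGFB2* to −1.63. Requiring at least 10 counts in every library dropped *BMP7*, *BMP6* and *BAMBI* from the test. No member changed sign under an alternative that tested it, and the widest range was that of *INHBE*, from 1.11 to 1.52. With 2 libraries per group, members with few counts such as *INHBA* were the least precise.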

Other observations

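Of the 8 markers of the glioma line, which were measured to check the labels, 6 were tested. The 4 that passed were all lower in Erastin-treated cells. Among all tested genes, 23.7% were lower and 23.2% higher at any size. *NES*, which encodes the neural stem cell filament nestin, had 1277 and 972 counts in control and 105 and 77 in Erastin-treated cells, a difference of −3.62 on the log2 scale (adjusted p = 3.97e-08, edgeR). *SLC1A3*, a glutamate transporter of astrocytes, had 1741 and 1725 counts against 307 and 326 (log2 fold change −2.45, adjusted p = 5.34e-09, edgeR). *VIM* was at −0.60 and *CD44* at −0.36 on the log2 scale (adjusted p = 1.27e-05 and 6.44e-04, edgeR). *GFAP*, the astrocyte filament, had 46 and 41 counts against 69 and 81 and did not pass (log2 fold change 0.79, adjusted p = 0.0696, edgeR). *OLIG2* did not pass either (log2 fold change −0.40, adjusted p = 0.305, edgeR). These genes were picked after their values were seen.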
